A study of Mus musculus with 12 samples.

Results

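The 4 genes described here encode secreted proteins of the acute-phase response: Saa1 and Saa3, which encode serum amyloid A proteins, Hp, which encodes haptoglobin, and Lrg1, which encodes leucine-rich alpha-2-glycoprotein. They are 4 of the 20711 genes that could be given a value, and were read by 22 probe sets that name 1 of them alone, of the 318760 probe sets on the array that name a single gene. The 4 were named with results of these data known, by a rule not given in the sources used here, and are treated as selected on the measured difference between HOXA9+MEIS1 and HOXA9+MIY cells. That difference, and the related one between HOXA9+MEIS1 and HOXA9+MDHD, is therefore given for them as a description and not as a test.

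In the acute-phase response, cytokines such as interleukin 6 and interleukin 1 act through STAT3, NF-kB and C/EBP transcription factors to raise the output of a set of plasma proteins, mostly from the liver. Serum amyloid A proteins ride on lipoproteins and act on myeloid cells through formyl peptide and Toll-like receptors. In the mouse Saa3 is the member made largely outside the liver, macrophages included, whereas haptoglobin, which binds free haemoglobin, and leucine-rich alpha-2-glycoprotein, which modulates TGF-beta signalling through endoglin, are also stored in neutrophil granules.

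Gene expression was measured on 12 Affymetrix mouse exon arrays, 4 for each of 3 conditions, of which 2 were taken after 3 weeks and 2 after 4 weeks in culture. The cells were primary bone marrow progenitors of female C57B/6 mice, 12 weeks old and treated with the cytotoxic drug 5-FU, and were grown in DMEM with 15% FCS and the cytokines IL3, SCF and IL6. All of them, controls included, carried Hoxa9 on a retroviral MSCV vector, and IL6, an inducer of acute-phase genes, was in the medium of all of them. HOXA9+MEIS1 cells also carried Meis1, the DNA-binding cofactor of Hoxa9, HOXA9+MDHD cells carried Meis1 with the DNA-binding homeodomain deleted, and HOXA9+MIY cells carried the empty MIY vector. The series counts 4 independent experiments per condition, but the labels do not say which arrays, if any, share a culture or a mouse. The vectors are overexpression constructs, and each array read a whole culture.

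Values are log2 gene values, each a median polish over the probe sets of a gene, and a difference of 1 is a 2-fold change. Hoxa9 lay between 13.17 and 13.46 on all 12 arrays. Meis1 lay between 9.26 and 9.50 in HOXA9+MEIS1 cells, between 8.92 and 9.40 in HOXA9+MDHD cells and between 6.62 and 6.90 in HOXA9+MIY cells, so both Meis1 vectors could be seen. The 3 progenitor markers Cd34, Flt3 and Kit averaged between 10.24 and 10.65 in HOXA9+MEIS1 cells. They averaged between 9.34 and 9.70 in HOXA9+MDHD cells and between 8.70 and 8.95 in HOXA9+MIY cells. These averages do not describe each marker alike. Against HOXA9+MIY, limma put 2 of the 3 up in HOXA9+MEIS1 cells at an adjusted p under 0.05 (median difference 1.24). It put 1 of 3 up in HOXA9+MDHD cells (median 0.67). With HOXA9+MEIS1 set against HOXA9+MDHD, 1 of 3 was up (median 0.10). Over all 20711 genes 1088, 195 and 472 were up, in the same order, with medians of -0.01, -0.01 and 0.01. Arrays correlated at r of 0.931 to 0.983 over the probe sets with a mean log2 value above 6.26. With 4 arrays per condition, precision is limited.

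The promoters of 3 of the 4 genes are shown first because C/EBP factors are known regulators of the serum amyloid A genes and because MEIS1 binds DNA through the homeodomain that HOXA9+MDHD cells lack in their vector. Each line is the 250 bases before the annotated start in RefSeq GRCm38.p6, at chr7:46742981-46743230 (minus strand) for Saa1, chr7:46715677-46715926 (minus strand) for Saa3 and chr17:56121947-56122196 (minus strand) for Lrg1. Capitals mark matches on either strand to the C/EBP letters TTNNGNAA or the MEIS letters TGACAG.
Saa1: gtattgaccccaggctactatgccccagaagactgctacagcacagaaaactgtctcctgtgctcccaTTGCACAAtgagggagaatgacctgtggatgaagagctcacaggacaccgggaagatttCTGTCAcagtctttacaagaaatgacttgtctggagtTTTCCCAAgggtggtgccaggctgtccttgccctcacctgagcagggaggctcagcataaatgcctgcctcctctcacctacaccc
Saa3: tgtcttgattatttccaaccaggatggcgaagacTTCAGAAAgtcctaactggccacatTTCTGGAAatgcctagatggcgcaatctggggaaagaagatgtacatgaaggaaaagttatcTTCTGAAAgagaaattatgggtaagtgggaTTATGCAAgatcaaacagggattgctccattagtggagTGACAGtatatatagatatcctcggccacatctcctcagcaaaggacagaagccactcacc
Lrg1: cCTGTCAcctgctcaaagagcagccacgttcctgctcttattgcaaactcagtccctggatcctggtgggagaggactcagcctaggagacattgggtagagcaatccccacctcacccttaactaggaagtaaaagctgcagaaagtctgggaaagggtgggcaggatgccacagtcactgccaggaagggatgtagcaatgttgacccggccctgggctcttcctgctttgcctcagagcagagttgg
No match overlapped another. The Saa1 window held 2 C/EBP matches, starting 182 and 86 bases before the gene's start, and the Saa3 window held 4, starting 216, 191, 129 and 99 bases before it. The Lrg1 window had none of these letters. Each of the 3 windows held 1 MEIS match, 123 bases before the start of Saa1, 61 before that of Saa3 and 249 before that of Lrg1. Among 32851 windows of the same length, 36.8% held the C/EBP letters and 15.9% the MEIS letters. The STAT letters TTCNNNGAA, the TATA box letters TATAAA and an NF-kB motif were searched as well and matched none of the 3 windows, against 7.02%, 12.4% and 5% of all windows. A match describes the sequence and shows no binding.

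Saa1 was lowest on the 4 HOXA9+MEIS1 arrays. Its value there was 6.88 and 5.61 at week 3 and 4.46 and 5.54 at week 4. In HOXA9+MDHD cells it was 8.75 and 12.04 at week 3 and 9.69 and 10.24 at week 4, and in HOXA9+MIY cells 10.61 and 10.27 at week 3 and 11.38 and 11.24 at week 4. Every HOXA9+MEIS1 array lay below every array of both other conditions. Of the HOXA9+MDHD arrays, the second of week 3 lay above every HOXA9+MIY array, and the others lay below every one. The means were 5.62 ± 0.99 in HOXA9+MEIS1, 10.18 ± 1.38 in HOXA9+MDHD and 10.88 ± 0.52 in HOXA9+MIY cells (SD, n = 4 each). The log2 difference was -5.25 ± 0.62 (limma's SE) between HOXA9+MEIS1 and HOXA9+MIY. Dim probe sets were filtered at a log2 value of 6.26, and the HOXA9+MEIS1 mean was under it. With those arrays set at no less than that value the gene was at least 22.0-fold lower in HOXA9+MEIS1 than in the controls. Between HOXA9+MEIS1 and HOXA9+MDHD the difference was -4.56 ± 0.62, at least 13.6-fold lower in HOXA9+MEIS1 by the same rule. In bulk cultures such as these, fewer cells that make a transcript and less of it per cell cannot be told apart.

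Saa3 had much the same pattern as Saa1 over the arrays. It stood at 7.27 and 6.88 at week 3 and 6.74 and 6.55 at week 4 in HOXA9+MEIS1 cells. In HOXA9+MDHD cells it stood at 8.27 and 11.59 at week 3 and 9.19 and 9.92 at week 4, and in HOXA9+MIY cells at 9.92 and 9.62 at week 3 and 10.90 and 10.81 at week 4. Again every HOXA9+MEIS1 array was below all others, and the HOXA9+MDHD arrays lay both above and below those of HOXA9+MIY. The difference between HOXA9+MEIS1 and HOXA9+MIY was -3.45 ± 0.56, a 10.9-fold lower value in HOXA9+MEIS1, with means of 6.86 ± 0.30 and 10.31 ± 0.64 (SD, n = 4 each). Between HOXA9+MEIS1 and HOXA9+MDHD (mean 9.74 ± 1.40) it was -2.88 ± 0.56, which is 7.36-fold lower in HOXA9+MEIS1. Saa1 and Saa3 correlated at r = 0.975 over the 12 arrays, which share their conditions and weeks.

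Hp spanned a narrower range over the arrays than Saa1 and Saa3. It measured 9.28 and 9.37 at week 3 and 8.41 and 9.02 at week 4 in HOXA9+MEIS1 cells. In HOXA9+MDHD cells it measured 9.19 and 10.99 at week 3 and 8.66 and 9.79 at week 4, and in HOXA9+MIY cells 10.54 and 10.26 at week 3 and 10.58 and 10.42 at week 4. HOXA9+MEIS1 and HOXA9+MDHD arrays overlapped for this gene, and 3 of the 4 HOXA9+MDHD arrays lay below every HOXA9+MIY array. Means were 9.02 ± 0.43 in HOXA9+MEIS1, 9.66 ± 1.00 in HOXA9+MDHD and 10.45 ± 0.14 in HOXA9+MIY cells (SD, n = 4 each). The difference was -1.43 ± 0.36 between HOXA9+MEIS1 and HOXA9+MIY, which is 2.69-fold lower in HOXA9+MEIS1, and -0.64 ± 0.36 between HOXA9+MEIS1 and HOXA9+MDHD.

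Lrg1 was nearly level across the HOXA9+MEIS1 arrays, at 7.81 and 7.69 at week 3 and 7.67 and 7.89 at week 4. It was 8.33 and 7.74 at week 3 and 8.49 and 9.27 at week 4 in HOXA9+MDHD cells, against 8.89 and 9.08 at week 3 and 9.77 and 9.45 at week 4 in HOXA9+MIY cells. The HOXA9+MEIS1 arrays lay below every HOXA9+MIY array. The HOXA9+MDHD arrays overlapped with HOXA9+MEIS1 at their low end, in 1 array of week 3, and with HOXA9+MIY at their high end, in 1 array of week 4. Means were 7.77 ± 0.10 in HOXA9+MEIS1, 8.46 ± 0.63 in HOXA9+MDHD and 9.30 ± 0.39 in HOXA9+MIY cells (SD, n = 4 each). The difference between HOXA9+MEIS1 and HOXA9+MIY was -1.53 ± 0.20, or 2.89-fold lower in HOXA9+MEIS1, and that between HOXA9+MEIS1 and HOXA9+MDHD was -0.69 ± 0.20.

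**Figure D1:**
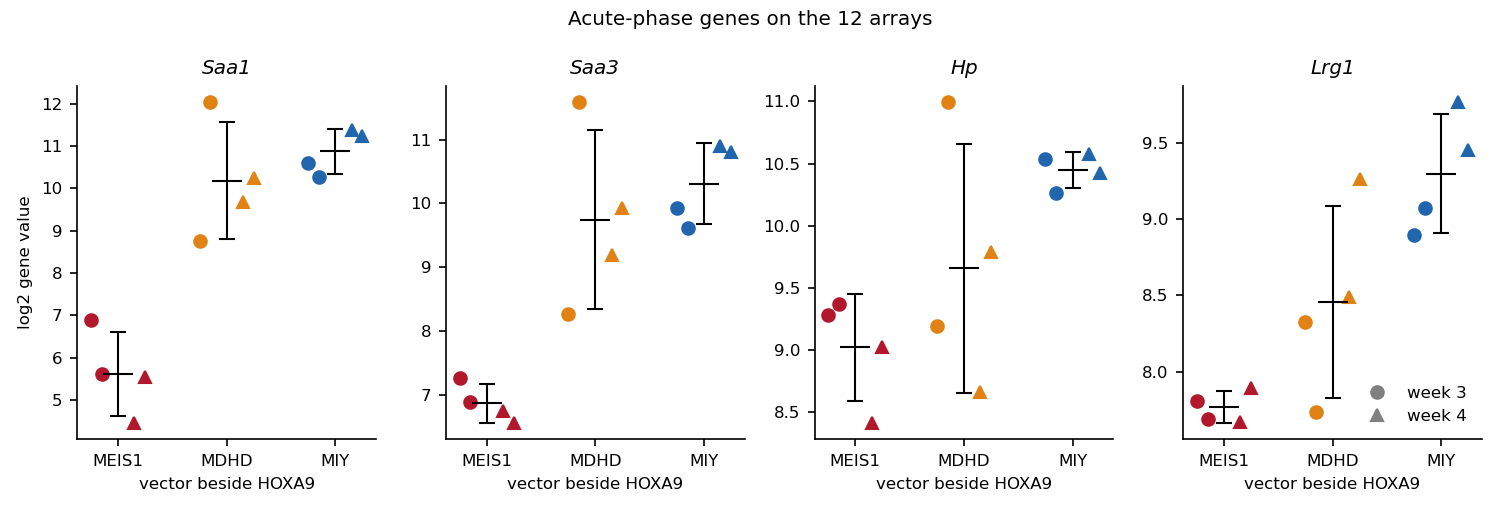
Log2 gene values of Saa1, Saa3, Hp and Lrg1 on each of the 12 arrays (circles week 3, triangles week 4), by the vector carried beside HOXA9; the black mark is the mean of 4 arrays and its bars 1 SD. All 4 HOXA9+MEIS1 arrays lie below all 4 HOXA9+MIY arrays in each panel, and HOXA9+MDHD spreads most, with 1 week 3 array on top for Saa1, Saa3 and Hp but at the bottom of its group for Lrg1.

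A gene was called where its Benjamini-Hochberg adjusted p, over all 20711 genes in the limma fit of condition and week, was under 0.05. All 4 genes were called lower in HOXA9+MEIS1 against HOXA9+MIY, as were 5.52% of all genes, and all 4 had every HOXA9+MEIS1 array below every HOXA9+MIY array, as had 5.94%. The genes are treated as chosen by this contrast, and nothing is read from these counts. Between HOXA9+MEIS1 and HOXA9+MDHD, which shares the HOXA9+MEIS1 arrays with it, Saa1 and Saa3 were called lower, 2 of the 4, against 2.11% of all genes. Those same 2 had every HOXA9+MDHD array above every HOXA9+MEIS1 array, which held for 2.54% of all genes.

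The order of the means, lowest in HOXA9+MEIS1, then HOXA9+MDHD, then HOXA9+MIY, was shared by all 4 genes, but the spacing was not. Saa1 and Saa3 in HOXA9+MDHD cells averaged 0.70 and 0.57 log2 units below HOXA9+MIY and several units above HOXA9+MEIS1. Hp and Lrg1 in HOXA9+MDHD cells lay 0.79 and 0.84 units below HOXA9+MIY and 0.64 and 0.69 above HOXA9+MEIS1. The distance between HOXA9+MDHD and HOXA9+MIY was smaller than the SD of the HOXA9+MDHD arrays for Saa1, Saa3 and Hp and larger for Lrg1. That between HOXA9+MEIS1 and HOXA9+MDHD was smaller than it for Hp. HOXA9+MDHD was also set against the mean of HOXA9+MEIS1 and HOXA9+MIY, a contrast orthogonal to the difference between those 2 conditions. Whether it entered the choice of the genes as well is not known, which limits its p-values and those between HOXA9+MDHD and HOXA9+MIY. Saa1 was 1.93 ± 0.54 above that mean (limma, adjusted p = 0.172) and Saa3 1.16 ± 0.48 above it (adjusted p = 0.435). Hp was -0.08 ± 0.31 from it (adjusted p = 0.969) and Lrg1 -0.08 ± 0.17 (adjusted p = 0.940). By limma 0 of the 4 were called and 2, Saa1 and Saa3, had an unadjusted p under 0.05. Over all genes 0.71% were called and 10.1% had an unadjusted p under 0.05. Without the second HOXA9+MDHD array of week 3 the values were 1.28 for Saa1 and 0.45 for Saa3, and without the first of that week 2.51 for Saa1 and 1.69 for Saa3 (adjusted p = 0.0575 and 0.145). Neither gene was called in either case.

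What homeodomain-deleted Meis1 adds to Hoxa9 is asked by HOXA9+MDHD against HOXA9+MIY, which shares the HOXA9+MIY arrays with the contrast taken as the basis of the choice. All 4 differences were negative and none was called: -0.70 ± 0.62 for Saa1 (limma, adjusted p = 0.713), -0.57 ± 0.56 for Saa3 (0.743), -0.79 ± 0.36 for Hp (0.364) and -0.84 ± 0.20 for Lrg1 (0.0586). In the same fit 1.03% of all genes were called lower and 0.942% higher, and 2 of the 4, Hp and Lrg1, had an unadjusted p under 0.05, as had 13.4% of all genes. Lrg1 was called when the second HOXA9+MDHD array of week 4 was left out, with a difference of -1.05 (adjusted p = 0.00326), and with no filter or a stricter one on dim probe sets. In the fit without that array 522 of the 20711 genes were called lower and 465 higher, against 214 and 195 in the main fit. These counts also stand beside the list counts of this contrast below that leave out that array. The other 3 genes depended on other arrays. Without the second HOXA9+MDHD array of week 3, Saa1 differed by -1.34 ± 0.51 (adjusted p = 0.284), Saa3 by -1.28 ± 0.33 (0.104) and Hp by -1.21 ± 0.25 (0.0509), larger and still not called. Without the first array of that week Saa1 differed by -0.11 and Saa3 by -0.03, and without the first HOXA9+MDHD array of week 4 Hp differed by -0.50.

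That second HOXA9+MDHD array of week 3 carried the highest Saa1, Saa3 and Hp value of all 12 arrays, 3 of the 4 genes, where 15.4% of all genes had their highest value on it. Its Lrg1 value of 7.74 was the lowest of the HOXA9+MDHD group and lay among the HOXA9+MEIS1 arrays. Within HOXA9+MDHD the span between the highest and lowest array was 9.74-fold for Saa1, 9.97-fold for Saa3, 5.04-fold for Hp and 2.89-fold for Lrg1. The same spans were 5.37-fold, 1.64-fold, 1.94-fold and 1.16-fold in HOXA9+MEIS1 cells, and 2.16-fold, 2.43-fold, 1.25-fold and 1.83-fold in HOXA9+MIY cells. Over the 12 arrays Saa3 correlated with Hp at r = 0.835 and with Lrg1 at r = 0.669, and Hp with Lrg1 at r = 0.521, a description over arrays that share conditions and weeks.

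**Figure D2:**
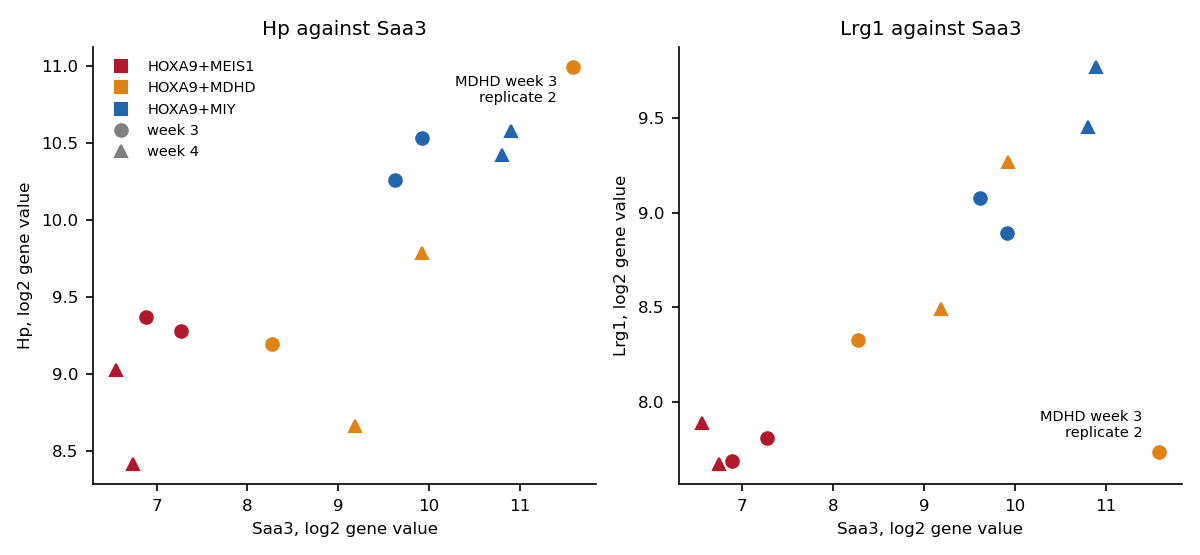
Log2 gene value of Hp (left) and Lrg1 (right) against that of Saa3 on each of the 12 arrays, coloured by condition, with circles for week 3 and triangles for week 4. The HOXA9+MDHD array of week 3, replicate 2, lies at the upper right for Hp (10.99 at a Saa3 value of 11.59) and at the lower right for Lrg1 (7.74).

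Markers of mature myeloid cells differed between the conditions as well. The 11 late neutrophil markers averaged between 7.98 and 8.36 per array in HOXA9+MEIS1 cells, between 8.46 and 10.29 in HOXA9+MDHD cells and between 10.00 and 10.90 in HOXA9+MIY cells. In HOXA9+MEIS1 against HOXA9+MIY 10 of 11 were called lower, and in HOXA9+MDHD against HOXA9+MIY 4 of 11, with list medians of -2.56 and -1.33 beside a median of -0.01 over all genes in each contrast. Without the second HOXA9+MDHD array of week 4 the count of 4 became 9, and the count called lower over all genes rose as well, from 214 to 522. In the HOXA9+MDHD group the list was lowest, 8.46, on the second array of week 3, where Lrg1 was lowest and Saa1, Saa3 and Hp highest, and it was highest, 10.29, on the second array of week 4, where Lrg1 was highest. S100a9, a neutrophil calcium-binding protein gene, stood at 7.68 and 11.01 on those arrays. The 9 macrophage markers averaged between 7.85 and 8.04 in HOXA9+MEIS1, between 8.37 and 9.09 in HOXA9+MDHD and between 8.89 and 9.06 in HOXA9+MIY cells, with 4 of 9 called lower in HOXA9+MEIS1 against HOXA9+MIY and 1, Emr1, called higher. On the second HOXA9+MDHD array of week 3 they averaged 8.54, second lowest of that group. Csf1r, the receptor gene of the macrophage growth factor, measured 9.65 there and 8.93, 8.99 and 9.65 on the other HOXA9+MDHD arrays, and Emr1, a macrophage surface receptor gene, measured 11.20 there and 11.59, 12.07 and 11.69 on the others. No marker was listed at 0, and the part of either cell type in the values of the 4 genes was not tested.

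Liver markers were looked for because these proteins are known as liver products. The 7 measured hepatocyte markers averaged between 7.38 and 7.52 in HOXA9+MEIS1, between 7.33 and 7.41 in HOXA9+MDHD and between 7.40 and 7.52 in HOXA9+MIY cells, and limma called 0 of 7 in either contrast. Alb, the albumin gene, averaged 7.59 in HOXA9+MEIS1, 7.64 in HOXA9+MDHD and 7.69 in HOXA9+MIY cells. The 5 primary granule markers averaged between 12.48 and 13.03 in HOXA9+MEIS1, between 12.69 and 13.03 in HOXA9+MDHD and between 13.17 and 13.36 in HOXA9+MIY cells.

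Over all 12 arrays Lrg1 was the 1 gene of the 4 that was called between the weeks. Week 4 was 0.50 ± 0.16 above week 3 (limma, adjusted p = 0.0278), against 11.7% of all genes called higher at week 4. It averaged 8.88 at week 4 and 8.03 at week 3 in HOXA9+MDHD cells and 9.61 at week 4 and 8.99 at week 3 in HOXA9+MIY cells, with no overlap between the weeks in either. In HOXA9+MEIS1 cells it averaged 7.78 at week 4 and 7.75 at week 3, and the weeks overlapped. The call was lost without the first HOXA9+MIY array of week 3 (adjusted p = 0.0630), without the first of week 4 (0.0656) or without the second HOXA9+MDHD array of week 3 (0.0576). The other 3 genes were not called, at -0.27 ± 0.51 for Saa1 (adjusted p = 0.729), 0.09 ± 0.45 for Saa3 (0.902) and -0.46 ± 0.29 for Hp (0.246).

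Saa1 and Saa3 averaged lower at week 4 than at week 3 in HOXA9+MEIS1 cells and higher in HOXA9+MIY cells. In HOXA9+MEIS1 cells both arrays of week 4 lay below both of week 3, with mean differences of -1.25 for Saa1, -0.43 for Saa3 and -0.61 for Hp, 3 of the 4 genes, a pattern that 40.2% of all genes shared. In HOXA9+MIY cells both arrays of week 4 lay above both of week 3 by 0.87 for Saa1, 1.08 for Saa3 and 0.63 for Lrg1, also 3 of the 4, a pattern that 24.4% of all genes shared. The distance between HOXA9+MEIS1 and HOXA9+MIY was therefore -6.31 at week 4 and -4.19 at week 3 for Saa1, and -4.20 at week 4 and -2.69 at week 3 for Saa3. The test of that change between the weeks gave -2.12 ± 1.19 for Saa1 (limma interaction, adjusted p = 0.830) and -1.51 ± 1.09 for Saa3 (adjusted p = 0.871), and neither was called.

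In HOXA9+MDHD cells the serum amyloid genes overlapped between the weeks, as the 2 arrays of week 3 held both the highest and the lowest value. At week 4 both HOXA9+MDHD arrays lay below both HOXA9+MIY arrays in all 4 genes, by -1.35 for Saa1, -1.30 for Saa3, -1.28 for Hp and -0.73 for Lrg1, a pattern that 19.8% of all genes shared. At week 3 the same differences were -0.04, 0.16, -0.30 and -0.95, and of the 4 only Lrg1 had both HOXA9+MDHD arrays below both HOXA9+MIY arrays, as had 23.7% of all genes. Among the 4 genes limma called 0 in each of the 3 interactions with week, and 0% of all genes were called in each. Chance gives an unadjusted p under 0.05 in about 1 in 20 genes. Of the 20711 genes, 1358 had such a p for HOXA9+MEIS1 against HOXA9+MIY, 1557 for HOXA9+MEIS1 against HOXA9+MDHD and 1011 for HOXA9+MDHD against HOXA9+MIY. Of the 4 genes 1, Lrg1, was among them, in the second of these, at -0.82 ± 0.35 (adjusted p = 0.655). Without the first HOXA9+MDHD array of week 3 the interaction of HOXA9+MDHD against HOXA9+MIY was -3.12 for Saa3. That fit left 1 HOXA9+MDHD array at week 3, the one with the highest Saa3 value of all arrays. Without the second, the interaction was 0.20 for Saa3, again with 1 such array left.

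The probe sets of a gene moved largely together. Saa1 had 1 probe set of its own and Saa3 had 5, of which 4 were called lower in HOXA9+MEIS1 against HOXA9+MIY, at -5.28 to -3.17, and the fifth differed by -1.0. For 3 of the Saa3 probe sets the HOXA9+MEIS1 mean lay below the filter level, and these were at least 17.8-fold, 16.7-fold and 6.64-fold lower in HOXA9+MEIS1. Of the 7 Hp probe sets 6 were called lower, at -1.70 to -1.07, and the remaining one, which differed by -0.45, was not. Of 9 Lrg1 probe sets 7 were called lower, at -2.60 to -0.72, and the one at -2.60 had a HOXA9+MEIS1 mean below the filter level and was at least 4.02-fold lower there. One of the other two was bright and nearly flat, differing by -0.21, and the last had a mean of 2.76 and was the 1 probe set of the 22 that did not pass the filter. The dimmest probe set that did pass was also one of Lrg1, with a mean of 7.11. Over all 318760 single-gene probe sets 3.5% were called lower in this contrast.

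Between HOXA9+MDHD and HOXA9+MIY, 3 of the 9 Lrg1 probe sets were called lower, at -1.21 ± 0.25 (adjusted p = 0.0241), -0.73 ± 0.17 (adjusted p = 0.0457) and -0.53 ± 0.12 (adjusted p = 0.0453) by limma, against 0.534% of all probe sets. Limma called 0 of the probe sets of Saa1, Saa3 and Hp, whose differences all were negative and lay between -1.02 and -0.19. The 9 Lrg1 probe sets share a transcript and are not independent of each other.

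**Figure D3:**
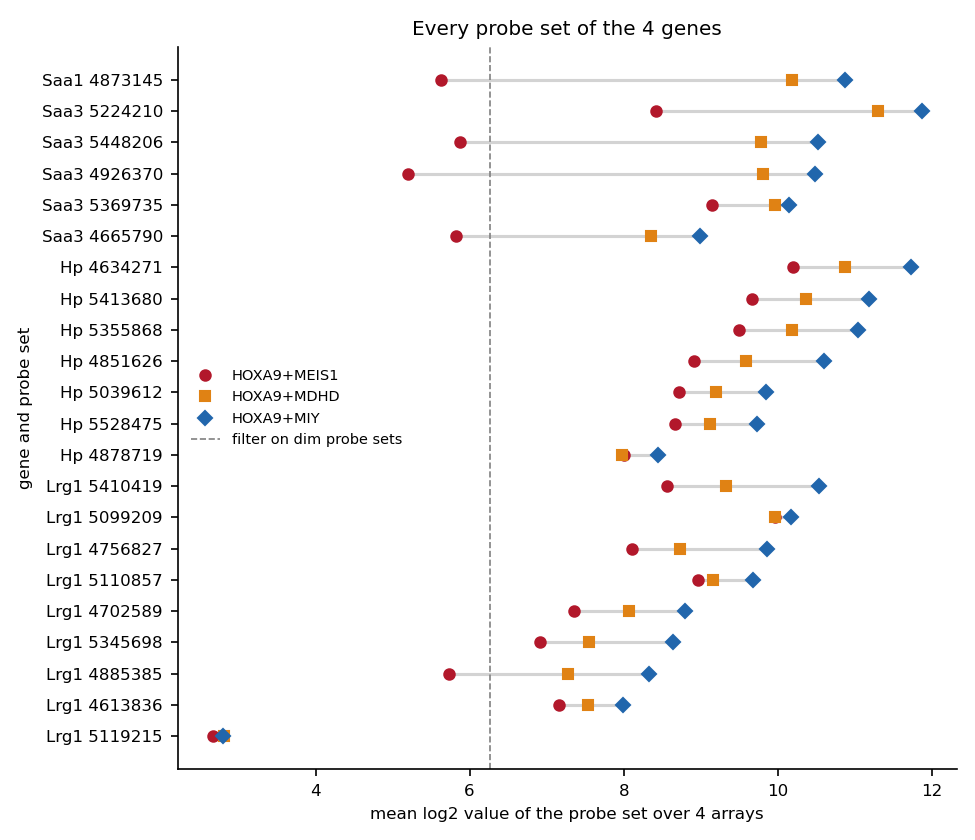
Mean log2 value of each of the 22 probe sets over the 4 arrays of a condition (circles HOXA9+MEIS1, squares HOXA9+MDHD, diamonds HOXA9+MIY); the grey line joins HOXA9+MEIS1 and HOXA9+MIY and the dashed line is the filter level of 6.26. The HOXA9+MDHD means of Saa1 and Saa3 sit beside those of HOXA9+MIY, most of those of Hp and Lrg1 lie between the other conditions, and 1 Lrg1 probe set lies far left of the filter.

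The serum amyloid genes lie in a cluster on chromosome 7, in the order Saa3, Gm31882, Saa4, Saa-ps, Saa1 and Saa2 in RefSeq GRCm38.p6. The 5 probe sets of Saa4, which encodes a constitutive serum amyloid A and lies between Saa3 and Saa1, had means of 3.88 to 5.34 and all lay below the filter. Saa2, a near copy of Saa1, had 1 probe set of its own, at 3.22, and 8 further probe sets named both Saa1 and Saa2. Of those 8, 1 followed the pattern of Saa1, at 8.67, 8.23, 7.87 and 7.94 in HOXA9+MEIS1 cells, 9.97, 12.99, 10.88 and 11.46 in HOXA9+MDHD cells and 11.50, 11.26, 12.41 and 12.24 in HOXA9+MIY cells, each in the order of weeks and replicates. The other 7 differed by -0.32 to 0.24 between HOXA9+MEIS1 and HOXA9+MIY. Of these, 2 lay below the filter level, and the rest passed it with means of 6.76 to 9.00 over the 12 arrays. RefSeq lists Saa1 and Saa2 as synonyms of each other, so how their signal divides is uncertain, and the value of Saa1 rests on 1 probe set.

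Most other acute-phase genes were not called. For 29 further ones that passed the filter, the median in HOXA9+MEIS1 against HOXA9+MIY was -0.05, beside -0.01 over all genes. In that contrast 5.52% of all genes were called lower and 5.25% higher, shares that also stand beside the lists below. Of the 29, 6 fell and 0 rose. Those that fell included Cp, the copper-carrying ferroxidase gene, at -1.96 ± 0.37 (limma, adjusted p = 0.00425), and Il1rn, which encodes the interleukin 1 receptor antagonist, at -1.80 ± 0.16 (adjusted p = 2.68e-05). Cd14, the lipopolysaccharide co-receptor gene, differed by -0.94 and C3, the complement gene, by -0.66, both called. Crp, Apcs, Orm1, Orm2, Hpx, Itih4, Lbp and Serpina3n, most of them made by liver, were not called, with differences between -0.13 and 0.31. In HOXA9+MDHD against HOXA9+MIY 1 of 29 fell, Lcn2, the gene of the iron-trapping neutrophil protein lipocalin and also one of the late neutrophil markers, at -0.62 ± 0.13 (adjusted p = 0.0359), and the list median was -0.07. Cp stood at 10.38 on the second HOXA9+MDHD array of week 3, against 7.90 to 8.10 on the other 3 arrays of that group. The 6 that fell in HOXA9+MEIS1 became 3 without the second HOXA9+MIY array of week 3, the first of week 4, or the second HOXA9+MEIS1 array of either week. The 1 that fell in HOXA9+MDHD became 0 without any 1 of the HOXA9+MIY arrays, without the second HOXA9+MEIS1 array of either week or without the first HOXA9+MDHD array of week 4, and 5 without the second HOXA9+MDHD array of week 4.

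Of 31 measured genes of the cytokine signal that acts on acute-phase promoters, 10 fell and 1 rose in HOXA9+MEIS1 against HOXA9+MIY, with a list median of -0.11. The largest falls were in the cytokine genes Il1a and Il1b. Il1a measured 5.54, 5.62, 5.61 and 6.40 in HOXA9+MEIS1 cells, 7.02, 10.68, 8.46 and 7.92 in HOXA9+MDHD cells and 8.43, 8.43, 9.56 and 9.30 in HOXA9+MIY cells, in the order of weeks and replicates. It was at least 6.22-fold lower in HOXA9+MEIS1 than in HOXA9+MIY (limma, adjusted p = 0.00479), and like Saa3 it was highest of all arrays on the second HOXA9+MDHD array of week 3. Il1b was 5.07-fold lower in HOXA9+MEIS1 (adjusted p = 0.00177). Il6st, the shared signalling receptor of the interleukin 6 family, fell, at -1.50, as did Il6ra, the interleukin 6 receptor gene, at -1.11, and Socs3, the feedback inhibitor gene induced by STAT3, at -0.79. Cebpb and Cebpd, which encode C/EBP factors, fell too, at -0.52 and -0.62, and Cebpa and Stat3 were not called, at 0.16 and -0.10. Cebpe, another C/EBP factor gene, lay the other way, with means of 10.73 in HOXA9+MEIS1 and 10.28 in HOXA9+MIY cells. The 1 of the 31 called higher was Hnf4a, a liver transcription factor gene, by 1.29 ± 0.22 (limma, adjusted p = 0.00258).

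In HOXA9+MDHD against HOXA9+MIY 3 of the 31 fell and 0 rose, with a list median of -0.09. These were Il6st at -0.97 ± 0.21 (limma, adjusted p = 0.0376), Socs3 at -0.53 ± 0.10 (0.0254) and Il6ra at -0.52 ± 0.09 (0.0180). Il1a and Il1b were not called there, at -0.41 ± 0.60 and -0.72 ± 0.39. The 3 calls became 0 without the first HOXA9+MIY array of week 3 or of week 4, and 1 without the second HOXA9+MIY array of either week or the first HOXA9+MDHD array of either week. In HOXA9+MEIS1 against HOXA9+MIY the 1 that rose became 4 without the second HOXA9+MDHD array of week 3 and 2 without either HOXA9+MDHD array of week 4.

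Of 11 receptors and partners of serum amyloid A, 4 fell and 0 rose in HOXA9+MEIS1 against HOXA9+MIY, with a list median of -0.04. They were Fpr1 at -1.53 and Fpr2 at -1.02, the formyl peptide receptor genes, Tlr2, the Toll-like receptor gene, at -1.28, and Abca1, a cholesterol exporter gene, at -1.09. In HOXA9+MDHD against HOXA9+MIY 2 fell and 1 rose. Fpr1 fell, at -1.42 ± 0.22 (limma, adjusted p = 0.00829), and so did Fpr2, at -0.99 ± 0.14 (0.00611), whereas Tlr2 and Abca1 were not called, at -0.45 ± 0.20 and 0.09 ± 0.17. Cd36, a scavenger receptor gene, rose by 1.82 ± 0.29 (adjusted p = 0.00991). Fpr1 on the second HOXA9+MDHD array of week 3 was 6.61, the lowest of all 12, and Tlr2 there was 10.65, the highest. Without the second HOXA9+MDHD array of week 4 the count that rose in HOXA9+MEIS1 was 2, and without the first it was 1.

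Among 11 genes that handle haemoglobin, haem and haptoglobin complexes, 7 fell and 1 rose in HOXA9+MEIS1 against HOXA9+MIY, with a list median of -0.27. Lrp1, which encodes a haem-haemopexin receptor, fell, at -2.09, as did Hmox1, the haem oxygenase gene, at -0.74, while Hbb-b1, a beta-globin gene, rose by 1.54. Cd163, the haptoglobin-haemoglobin receptor gene, was not called, at -0.03. In HOXA9+MDHD against HOXA9+MIY 2 fell and 1 rose, with Lrp1 at -0.84 ± 0.16 and Hbb-b1 at 1.54 ± 0.31. The 2 that fell became 0 without either HOXA9+MIY array of week 3, the second of week 4 or the first HOXA9+MDHD array of either week, 1 without the first HOXA9+MIY array of week 4, and 4 without the second HOXA9+MDHD array of week 4. The call of Hbb-b1 was lost without either HOXA9+MIY array of week 3, the first of week 4 or the first HOXA9+MDHD array of either week. Globin probe sets can share sequence between near-identical copies, so the value of Hbb-b1 is uncertain.

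Of 15 TGF-beta receptor and signalling genes through which LRG1 is known to act, 2 rose and 0 fell in HOXA9+MEIS1 against HOXA9+MIY, Tgfbr2 by 0.50 ± 0.08 (limma, adjusted p = 0.00225) and Tgfbr1 by 0.38 ± 0.09 (0.0132). Eng, the gene of the LRG1 partner endoglin, was not called, at -0.17 ± 0.10, nor was Id1, a target gene of the pathway, at -0.27 ± 0.08. In HOXA9+MDHD against HOXA9+MIY limma called 0 of 15, and Eng was at -0.10 ± 0.10. The 2 that rose in HOXA9+MEIS1 became 1 without the second HOXA9+MIY or HOXA9+MEIS1 array of week 4, and the 0 of 15 in HOXA9+MDHD became 2, both higher, without the second HOXA9+MDHD array of week 4.

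**Figure D4:**
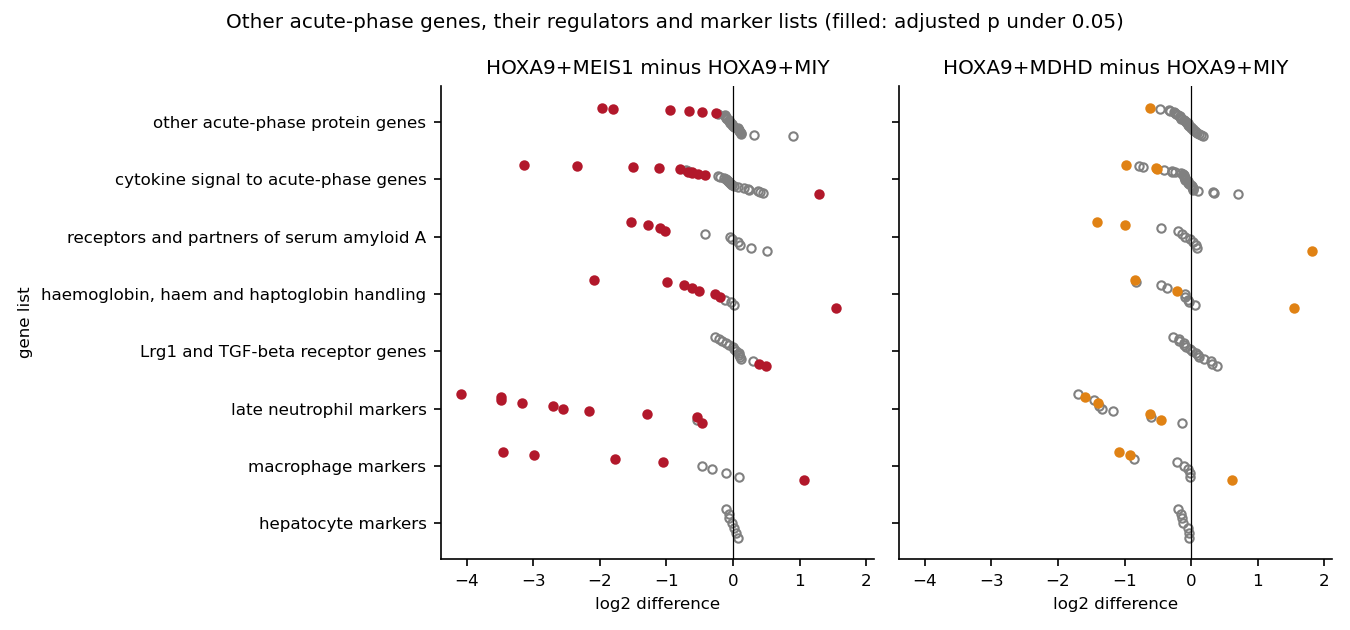
Log2 difference of each measured gene of 8 lists in HOXA9+MEIS1 minus HOXA9+MIY (left) and HOXA9+MDHD minus HOXA9+MIY (right); filled points were called, open grey points were not. Late neutrophil markers lie furthest left in both panels, hepatocyte markers stay near 0, and most other acute-phase genes are open points near 0.

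The genes whose values were most like those of each of the 4 were taken as the 5 with the highest Pearson r over the 12 arrays, a description over arrays that share conditions and weeks. Saa1 was closest to Cybb (r = 0.969), which encodes a subunit of the phagocyte oxidase, then to Ptprj, Clcn7, Abca1 and Gpnmb. Saa3 was closest to Tlr2 (r = 0.971), then to Lpl, the lipoprotein lipase gene, Abca1, Il1a and Il1b (r = 0.958). Hp was closest to Slc37a2 (r = 0.956), then to Fam20c, Slc38a7, Gpr84 and Ptafr, the gene of the platelet-activating factor receptor. Lrg1 was closest to Gal (r = 0.991), the gene of the peptide galanin, then to Alox5ap, which encodes the 5-lipoxygenase activating protein, Gpc3, Clec4b2 and Tmem154.

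On the second HOXA9+MDHD array of week 3 these sets parted. Lpl was 10.90 there and 7.80, 8.42 and 9.27 on the other HOXA9+MDHD arrays, and Gpr84 was 11.52 there and 9.85, 9.11 and 9.78 on the others. Gal was 7.21 there and 7.82, 8.47 and 9.79 on the others, and Clec4b2 was 7.17 there and 7.83, 8.23 and 8.67 on the others. Every gene of the sets like Saa1, Saa3 and Hp had its highest HOXA9+MDHD value on that array and every gene of the set like Lrg1 its lowest, which a choice by likeness favours.

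**Figure D5:**
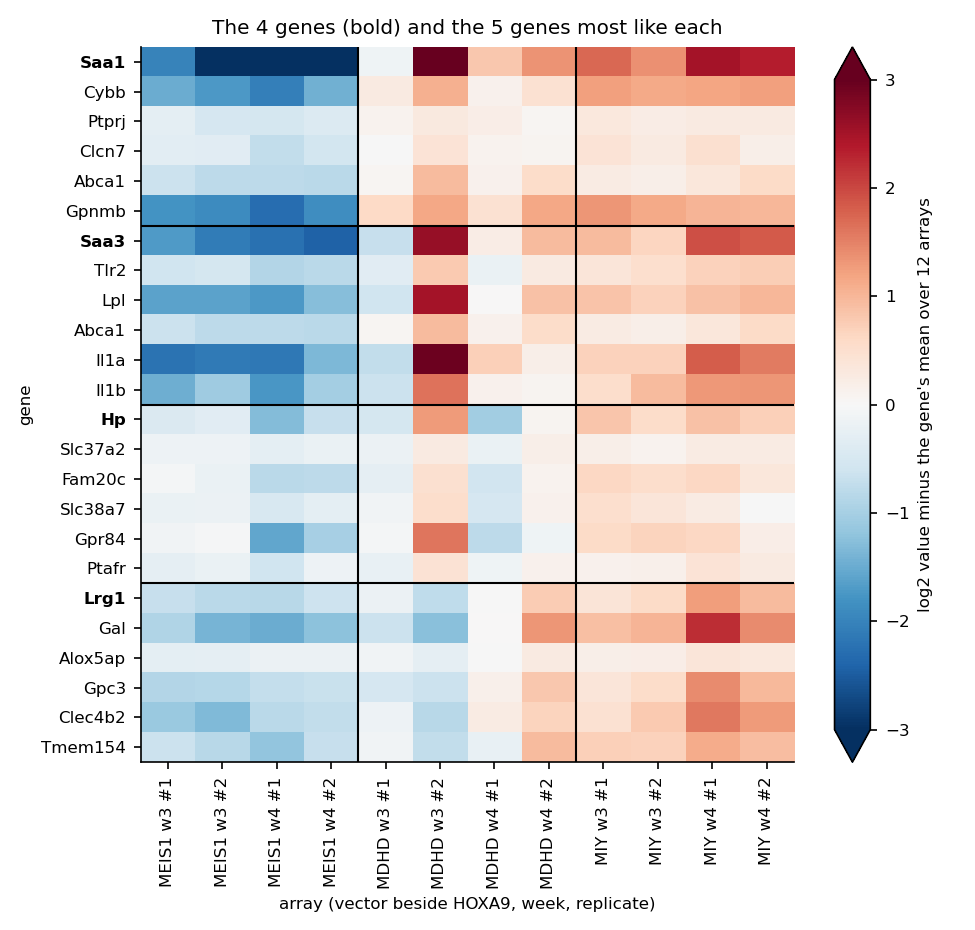
Log2 value minus the gene's mean over the 12 arrays, for the 4 genes (bold) and the 5 genes most like each, with arrays ordered by condition, week (w) and replicate (#). Colours end at 3 log2 units either way; on the HOXA9+MDHD array of week 3, replicate 2, the Saa1, Saa3 and Hp sets are red and the Lrg1 set is blue.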

How the data were processed

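Gene expression was read on 12 Affymetrix mouse exon arrays. The deposited table holds log2 signals per exon-level probe set, made by the authors with Affymetrix Expression Console and RMA, per the submitters' processing notes, which give no version. RMA corrects background and quantile-normalizes all arrays together, so values are relative within these 12 arrays, whose medians ranged from 6.26 to 6.30. Of 1256831 probe sets 20744 were at 0 on every array. These fell below the filter described next and entered no main gene value, but they counted toward its percentile. Of all probe sets, 318760 named 1 gene (22296 symbols) and 6684 named several genes and were left out of gene values. Conditions and weeks came from the labels, and all 12 sample columns were used.

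Named probe sets with a mean log2 signal above the 50th percentile of the table, 6.26, were kept (233798), and a median polish (at most 50 iterations) gave a value for 20711 genes, the typical gene (median) having 8 of them. Differences were fitted with limma 3.58.1 in R 4.3.3 (lmFit and eBayes with trend) on condition and week, with 8 residual and 3.96 prior degrees of freedom, and with interaction terms for the weeks. P-values were Benjamini-Hochberg adjusted over all genes, or over all 318760 probe sets for single probe sets, and called under 0.05. The SE beside a difference is limma's. A fold described as at least so large sets values under the filter level to that level. The fit was tested on simulated data with 200 changed genes. Python 3.11.15, pandas 2.3.3 and matplotlib 3.10.9 were used for summaries and figures.

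The members and the gene lists were chosen with earlier results of these data known. Named genes were the 4 members, the 5 genes most like each by Pearson r over the 12 arrays, at most 4 called genes with the largest change per list and contrast, uncalled sensors, receptors or partners of a member, and Hoxa9 and Meis1. Crp, Apcs, Orm1, Orm2, Hpx, Itih4, Lbp, Serpina3n, Il6ra, Socs3, Cebpa, Cebpb, Cebpd, Cebpe, Stat3, Id1 and Alb fall outside that rule in at least 1 contrast and were chosen after their values were seen. The p-values measure the spread between arrays, which may be partly technical, since the labels do not tie arrays to cultures. The replicate numbers were not used as pairs. Between conditions within a week, residuals of same-numbered arrays correlated at -0.32 to -0.01 and those of differently numbered arrays at -0.27 to 0.05. Arrays of week 3 were not compared with those of week 4 in this way. Whether a culture gave arrays at both weeks was therefore not tested. Alternatives were other filters on dim probe sets, the mean of probe sets, median centring, quantile normalization, no week term, each week alone, only the groups compared, a replicate block and leaving out each array. The promoter sequences are RefSeq's, matched by symbol for 3 of the 4 genes, and the protein sequences were not used here.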

Additional observations from a re-analysis of the deposited data

Results flagged for a closer look

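Within each condition the highest and the lowest of the 4 arrays were compared with their nearest neighbour for 62 genes, in 186 groups, and 8 groups had an array whose gap to the others exceeded Dixon's critical value. Chance gives such a gap in about 1 in 20 groups. None of the 8 was in Saa1, Saa3, Hp or Lrg1.

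On the HOXA9+MDHD array of week 3, replicate 2, which was also the highest of all 12 for Saa1, Saa3 and Hp, Cp stood far above the rest at 10.38, against 7.90 to 8.10 on the other 3 arrays of its condition. In HOXA9+MDHD cells Stat3 was high on week 4, replicate 1, at 10.73, against 10.45 to 10.49 on the other 3 arrays of its condition. Scarb1 was high on HOXA9+MDHD week 4, replicate 2, at 10.79, against 10.67 or less on the other 3 arrays of its condition. In HOXA9+MEIS1 cells week 4, replicate 2, was high for Il1a at 6.40, against 5.54 to 5.62 on the other 3 arrays of its condition, and for Il6ra at 8.96, against 8.67 to 8.70 on the other 3 arrays of its condition. HOXA9+MEIS1 week 3, replicate 2, was low for Cebpb at 9.05, against 9.19 to 9.21 on the other 3 arrays of its condition, and for Cd36 at 7.63, against 8.20 to 8.30 on the other 3 arrays of its condition. Abca1 was high on HOXA9+MEIS1 week 3, replicate 1, at 7.34, against 7.18 to 7.19 on the other 3 arrays of its condition.

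Probe sets that name both Saa1 and Saa2 entered no gene value. Beside the one described above, the HOXA9+MDHD mean of a shared probe set was 7.59 and lay above every HOXA9+MIY array (7.13 to 7.54), and the HOXA9+MEIS1 mean of another was 6.82, above every HOXA9+MIY array (6.67 to 6.76). These are values of data outside the main measurement, and the differences were not tested.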

How the results depend on the processing

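Of 620 values of the 4 genes under the alternatives, 584 kept their direction and their side of the threshold, 27 changed sign, 4 passed it, 3 no longer passed it and 2 untested values moved beyond the spread of the arrays. For HOXA9+MDHD minus HOXA9+MIY, Lrg1 was called when dim probe sets were kept, at -0.71 (limma, adjusted p = 0.0366), and with a stricter filter, at -0.70 (0.0180), and Saa3 was 0.16 with week 3 alone. Against the mean of HOXA9+MEIS1 and HOXA9+MIY, HOXA9+MDHD was 0.23 for Hp with week 3 alone and 0.18 for Lrg1 with week 4 alone. Week 4 minus week 3 for Saa3 was -0.12 with the stricter filter and -0.17 with the mean of probe sets. Lrg1 in HOXA9+MEIS1 minus HOXA9+MDHD was -1.10 with week 4 alone and -0.28 with week 3 alone. The cause of these moves was not tested.

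With each array left out in turn, the values of HOXA9+MDHD minus HOXA9+MIY ranged over -1.05 to -0.67 for Lrg1. Those of HOXA9+MDHD against the mean of the other conditions ranged over -0.49 to 0.21 for Hp, -0.29 to 0.10 for Lrg1, 1.28 to 2.51 for Saa1 and 0.45 to 1.69 for Saa3, and those of week 4 minus week 3 over -0.66 to 0.16 for Saa1, -0.26 to 0.57 for Saa3 and 0.36 to 0.59 for Lrg1. The change between the weeks in HOXA9+MEIS1 minus HOXA9+MDHD ranged over -2.45 to 0.83 for Saa1, -1.71 to 1.61 for Saa3 and -0.64 to 1.17 for Hp, and that in HOXA9+MDHD minus HOXA9+MIY over -2.95 to 0.34 for Saa1, -3.12 to 0.20 for Saa3 and -0.16 to 0.61 for Lrg1.

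The labels do not say what a shared replicate number means. The replicate block, which joined same-numbered arrays of a week, left the differences as they were. Under the replicate block Lrg1 in HOXA9+MDHD minus HOXA9+MIY was -0.84 ± 0.21 (adjusted p = 0.0797), no call among the 4 genes changed, and the calls over all genes were 2026 against 2231 for HOXA9+MEIS1 minus HOXA9+MIY and 332 against 409 for HOXA9+MDHD minus HOXA9+MIY.

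The count of genes called for HOXA9+MEIS1 minus HOXA9+MIY, 2231, was 917 with week 3 alone, 809 with week 4 alone and 902 with no week term. That for HOXA9+MEIS1 minus HOXA9+MDHD, 910, was 373, 210 and 297 in the same settings and 520 with only the groups compared. That for HOXA9+MDHD minus HOXA9+MIY, 409, was 236, 11, 35 and 147 in those 4 settings, and with 1 array left out it lay between 139, without the first HOXA9+MIY array of week 3, and 987, without the second HOXA9+MDHD array of week 4. That for HOXA9+MDHD against the mean of the others, 147, was 70, 5 and 25 with week 3 alone, week 4 alone and no week term, and 83 to 363 with 1 array left out, both extremes without an HOXA9+MDHD array. The number of arrays and, for Saa1, a signal close to the background in HOXA9+MEIS1 cells limit the precision.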
